A study of Homo sapiens with 15 samples.

Results

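The comparison described here sets SNB19 cells that carry the short form of ZBTB18, labelled SF-Nte, against SNB19 cells that carry the empty lentiviral vector, labelled EV, with 3 libraries in each group. These 6 of the 15 libraries of the series were chosen by their construct labels alone, and no measured value entered the choice. SNB19 is a human glioblastoma line. All 15 libraries come from SNB19 cells grown in DMEM with serum and transduced with lentivirus of the pCHMWS vector, so cells of both groups were exposed to virus, at a dose that the labels do not state. The other 9 libraries carry full-length ZBTB18 (FL), its mutant (FL-mut) or the mutant of the short form (SF-mut), 3 libraries each, and are used below where their levels bear on a result. The labels do not state which residues the short form retains, what the mutations change, the promoter that drives the insert, the time from transduction to harvest, or whether the cells are a pool or a clone. Since nothing says that replicates were cultured separately, p-values cover the spread among these libraries alone, which may be technical.

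ZBTB18, also known as RP58, is a transcriptional repressor with an amino-terminal BTB domain, through which such proteins bind partners and corepressors, and carboxy-terminal zinc fingers that bind DNA at a sequence related to the E-box. In mice it is needed for neuronal differentiation in the developing cortex, and in glioblastoma it is known as a repressor of mesenchymal genes. A form of the protein that lacks part of its sequence can differ from the full-length protein in DNA binding, in partners or in both, and the comparison with EV asks which transcripts differ when the short form is present.

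Each library was read as PCR-amplified cDNA on the Oxford Nanopore platform, and reads were counted per gene symbol. Total counts ran from 432611 to 603155 in the SF-Nte libraries and from 1274474 to 1930245 in the EV libraries, and genes with at least 1 count ran from 8625 to 9565 in SF-Nte and from 11936 to 13203 in EV. The SF-Nte libraries stand on both deposited sample sheets: the first also lists EV, FL and FL-mut, and the second also lists SF-mut, whose totals (315693 to 597414) are as low as those of SF-Nte. Depth, the second sheet and the short form thus go together and cannot be told apart. Over 3634 well-counted genes, log2 levels correlated at 0.814 to 0.843 between SF-Nte libraries, 0.826 to 0.909 between EV libraries and 0.745 to 0.865 between libraries of the 2 groups, as a description across genes. Of the 13 glioblastoma and astrocyte markers in the table, S100B was at 0 in all 6 libraries, and GFAP had counts in only 1 SF-Nte and 2 EV libraries, while VIM, FABP7 and SLC1A3 were present in all 6. The summed level of these markers was 1182 to 1382 CPM in SF-Nte and 583.5 to 1213 CPM in EV, where CPM is counts per 1000000 of the TMM-scaled library size. Summed markers of other cell types were at most 105.9 CPM in SF-Nte and 119.3 CPM in EV, both for the stromal list, with SYT1, SNAP25, MBP, CX3CR1 and TYROBP at 0 in all 6. Fewer cells of a type and less RNA per cell cannot be told apart in such bulk libraries.

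ZBTB18 lies on chromosome 1 (244048939 to 244057476, plus strand, GRCh38). Its level was 470, 199 and 234 CPM in the SF-Nte libraries, against 7, 4.37 and 7.12 CPM in the EV libraries. Every SF-Nte library was far above every EV library. The log2 fold change was 5.58 ± 0.94 (SE, n = 3 each; 95% interval 3.59 to 7.56), with an edgeR quasi-likelihood adjusted p of 0.0493, so ZBTB18 rose. The counts do not separate the transcript of the vector from the cell's own. The SF-Nte level was below that of the other constructs: the FL libraries held 635, 3067 and 623 CPM, the FL-mut libraries 907, 2800 and 6858 CPM, and the SF-mut libraries 853, 3631 and 896 CPM. No SF-Nte library reached the lowest of those 9. The log2 difference of SF-Nte was -2.26 ± 0.76 (SE) against FL, with adjusted p = 0.189, and -2.57 against SF-mut, with adjusted p = 0.574. The call of ZBTB18 against EV was kept in 1 of the 6 fits that left out a library, that without SF-Nte replicate 2, and its adjusted p reached 0.278 without EV replicate 2.

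Across the transcriptome few genes passed the threshold. Of 6767 genes tested, 3 (0.0443%) passed an adjusted p of 0.05 in SF-Nte against EV: ZBTB18 was the 1 higher gene (0.0148%), and SQSTM1 and MRNIP were the 2 lower genes (0.0296%). At an unadjusted p under 0.05 there were 489 genes (7.23%), of which 112 (1.66%) were higher and 377 (5.57%) lower in SF-Nte. All 3 SF-Nte libraries were above all 3 EV libraries for 406 genes (6%) and below them for 766 (11.3%). The median log2 fold change of all tested genes was -0.13, with 57.2% of genes below 0 and 42.8% above. Leaving out 1 library changed the count of calls to 0 without SF-Nte replicate 1 or 3, 1 without EV replicate 2, 2 without EV replicate 3, and 4 without SF-Nte replicate 2 or EV replicate 1. With DESeq2 size factors in place of TMM, SQSTM1 alone passed, and with a trend on transcript length and GC content taken out, 0 genes did.

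The lean towards lower values moved with level and base composition. In the tercile of lowest level the median log2 fold change was -0.39, in the middle tercile -0.14, and in the tercile of highest level 0.02. By GC content of the transcript, the medians were -0.03 in the lowest tercile, -0.06 in the middle and -0.32 in the highest, while by transcript length they were -0.11, -0.15 and -0.13 from short to long. The tested genes also included 115 with 0 counts in all 3 SF-Nte libraries and 5 with 0 counts in all 3 EV libraries. The part of depth and of amplification in the 377 lower genes was not tested.

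**Figure D1:**
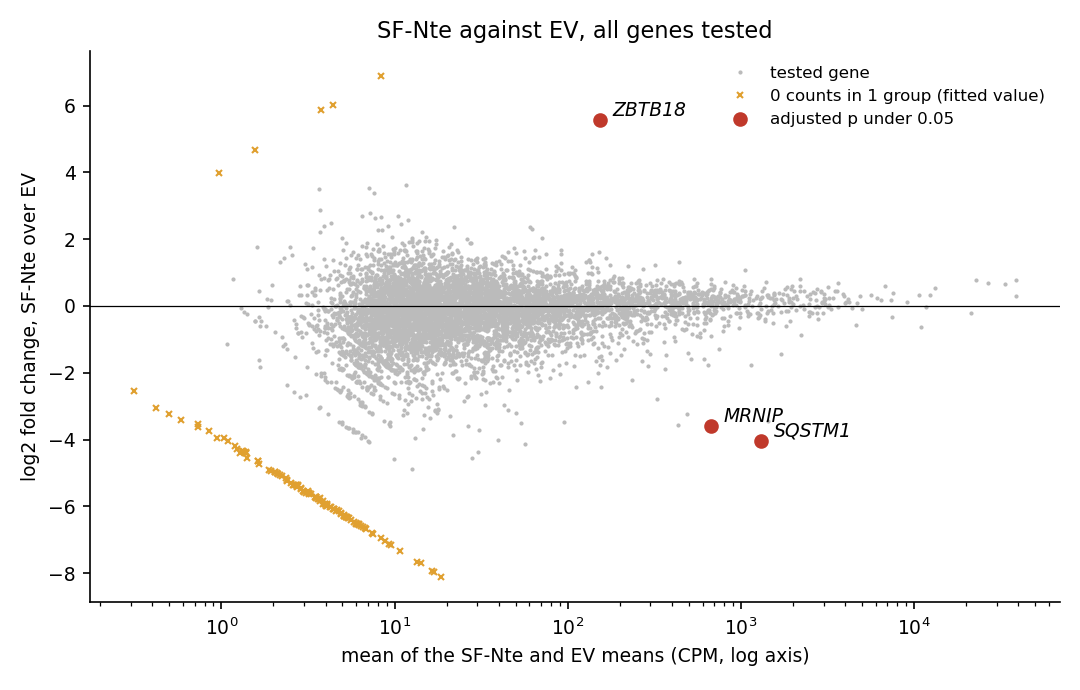
Log2 fold change of SF-Nte over EV (vertical axis) against the mean of the 2 group means in CPM (horizontal log axis) for the 6767 genes tested. Grey points are tested genes, red points the 3 past an adjusted p of 0.05, and crosses genes with 0 counts in all libraries of 1 group, whose plotted value depends on the fit. ZBTB18 at 5.58 lies above all other genes with counts in both groups. MRNIP at -3.60 and SQSTM1 at -4.03 lie at the lower edge of genes of a like level, close to others such as CLTC at -3.58 that did not pass the threshold.

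The lower genes past the threshold were neighbours that overlap on chromosome 5. SQSTM1 encodes the autophagy receptor p62, which binds ubiquitinated cargo and ATG8 proteins, and also holds KEAP1, the brake of the antioxidant factor NRF2. MRNIP encodes a partner of the MRE11-RAD50-NBN complex that senses DNA double-strand breaks. SQSTM1 is on the plus strand from 179806398 to 179838078 and MRNIP on the minus strand from 179835133 to 179862173 in GRCh38. Their 3′ ends share 2946 bases, from 179835133 to 179838078, of which 1582 are exonic in both. As the counting's use of strand is not given in the sources used here, reads from this stretch cannot be assigned to either gene, and the MRNIP value may partly be that of SQSTM1.

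The reference promoters of this pair are shown because both genes that fell lie here and because a repressor's binding motif can be looked for in them. They span 250 bases before to 50 after an annotated start, from RefSeq on GRCh38.p14. The SQSTM1 window is chr5:179820655-179820954 on the plus strand, of 3 listed the window whose transcribed bases hold an ATG, and the MRNIP window is chr5:179858768-179859067 on the minus strand. Capitals mark the E-box core CANNTG, which both strands share.
SQSTM1: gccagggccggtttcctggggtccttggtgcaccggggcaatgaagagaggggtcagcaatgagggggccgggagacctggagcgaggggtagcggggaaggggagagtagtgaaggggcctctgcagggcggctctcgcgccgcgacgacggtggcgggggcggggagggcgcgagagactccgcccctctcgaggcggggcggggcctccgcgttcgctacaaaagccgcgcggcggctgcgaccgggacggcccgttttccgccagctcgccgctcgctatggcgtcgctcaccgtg
MRNIP: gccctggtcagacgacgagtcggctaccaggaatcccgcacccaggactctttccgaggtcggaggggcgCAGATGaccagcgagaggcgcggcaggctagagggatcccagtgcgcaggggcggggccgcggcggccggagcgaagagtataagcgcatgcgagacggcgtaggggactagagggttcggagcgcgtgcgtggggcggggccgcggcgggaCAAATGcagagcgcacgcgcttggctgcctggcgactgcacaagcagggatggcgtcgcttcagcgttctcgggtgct
The window of MRNIP holds CANNTG at 2 places and the printed window of SQSTM1 at none, so the SQSTM1 line carries no capitals. Of the other SQSTM1 windows, that at the annotated gene start holds CANNTG at 3 places and the next at none. Over all 35116 promoter windows, 68.7% have at least 1 match. The published core of the ZBTB18 site, ACATCTG, or CAGATGT on the other strand, was in neither printed window nor in the other windows of SQSTM1. It was in 3.4% of all promoter windows and in 1.97% of the 8084 windows of tested genes, and 1 window of ZBTB18 itself held it, at position -98 counted from the start. A match or its absence in these windows describes the letters only.

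SQSTM1 stood at 166, 167 and 117 CPM in the SF-Nte libraries, against 1457, 5102 and 822 CPM in the EV libraries. The groups did not overlap, and EV replicate 2 was far above the other EV libraries. The log2 fold change was -4.03 ± 0.59 (SE; 95% interval -5.28 to -2.78) with an adjusted p of 0.0295 in edgeR's quasi-likelihood test. Without EV replicate 2 it was -2.94 with an adjusted p of 0.0281, and the call was lost without any 1 of the SF-Nte libraries, at adjusted p up to 0.209.

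MRNIP stood at 106, 119 and 82.2 CPM in SF-Nte, against 767, 2513 and 442 CPM in EV. Its EV libraries ranked in the same order as those of SQSTM1, again without overlap. It fell by 3.60 ± 0.57 on the log2 scale (SE), with adjusted p = 0.0380 by edgeR. The call was kept in 2 of the 6 fits that left out a library, and the log2 fold change was -2.58 without EV replicate 2. The count of MRNIP over that of SQSTM1 was 0.640, 0.708 and 0.702 in the SF-Nte libraries and 0.526, 0.493 and 0.538 in the EV libraries.

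The pair was also read in the other groups. In FL, SQSTM1 was at 1881, 2542 and 1086 CPM and MRNIP at 1008, 1253 and 581 CPM, within the range of EV. In FL-mut, SQSTM1 was at 980, 770 and 406 CPM and MRNIP at 499, 438 and 191 CPM. In SF-mut, SQSTM1 was at 258, 200 and 170 CPM and MRNIP at 106, 111 and 77.9 CPM, close to SF-Nte and below every library of EV, FL and FL-mut. The log2 difference of SF-Nte against SF-mut was -0.48 for SQSTM1 (unadjusted p = 0.384) and 0.06 for MRNIP (unadjusted p = 0.911), both with edgeR adjusted p over 0.05. The low levels thus go with the short form in both its versions, and equally with the second sample sheet and the shallower libraries, which cannot be told apart.

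**Figure D2:**
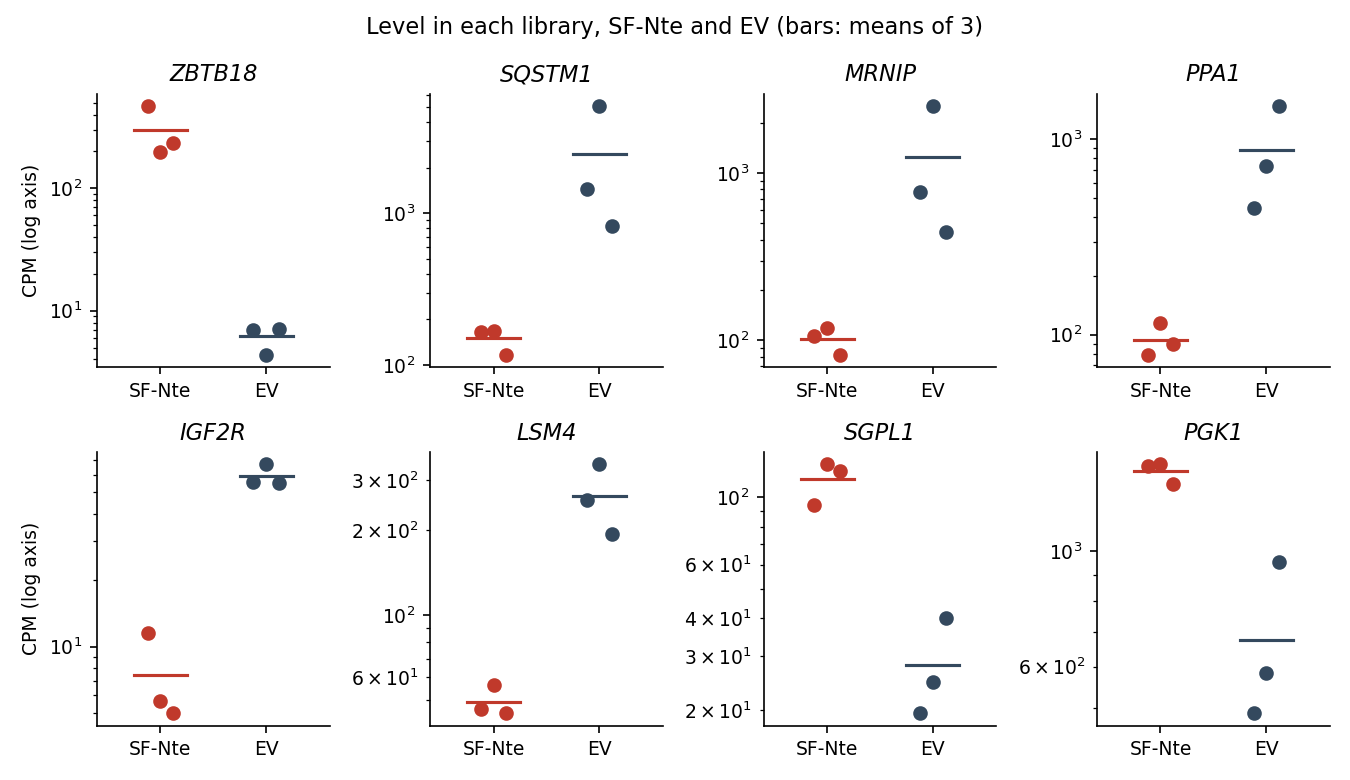
Level in CPM (log axes that differ between panels) of 8 genes in the 3 SF-Nte libraries (red, left) and the 3 EV libraries (dark, right); points are libraries and bars the means of 3. ZBTB18, SQSTM1 and MRNIP passed the threshold; PPA1, IGF2R, LSM4, SGPL1 and PGK1 did not, although their groups do not overlap, and EV replicate 2 sets the height of the SQSTM1 and MRNIP bars.

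Below the threshold, the genes of lowest p with separate groups are given as values, and none of them passed the adjustment. On the lower side the adjusted p ran from 0.0882 to 0.198. PPA1, the cytosolic inorganic pyrophosphatase, was at 79.0, 115 and 89.6 CPM in SF-Nte, against 447, 731 and 1485 CPM in EV (log2 fold change -3.23 ± 0.59, SE, adjusted p = 0.0882). It was also low in FL-mut, at 124, 132 and 144 CPM, so its level does not go with the short form alone.

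IGF2R, the mannose 6-phosphate receptor that carries hydrolases to the lysosome, was at 11.6, 5.65 and 4.98 CPM in SF-Nte, against 55.5, 67.0 and 55.2 CPM in EV. The EV libraries lay close together, and the log2 fold change was -2.96 ± 0.56 (SE). The SF-mut libraries held 8.17, 6.16 and 6.15 CPM, again near SF-Nte. FL-mut held 32.3, 13.6 and 39.1 CPM of IGF2R, also under every EV library, so a level below EV does not go with the short form alone. The SF-Nte values of IGF2R rest on 11 counts in all. CCND3, the G1 cyclin D3, was at 11.6, 33.9 and 0 CPM in SF-Nte, against 215, 206 and 107 CPM in EV, and at 29.4, 37.0 and 24.6 CPM in SF-mut. For both genes all SF-Nte and SF-mut libraries were under every EV library.

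LSM4, a subunit of the ring that binds U6 snRNA and of the ring that works in mRNA decay, was at 46.2, 56.5 and 44.8 CPM in SF-Nte, against 256, 341 and 194 CPM in EV (log2 fold change -2.42 ± 0.46, SE). GSR, the glutathione reductase, was at 11.6, 13.2 and 14.9 CPM in SF-Nte, against 52.0, 94.7 and 52.5 CPM in EV. LRRFIP2 was at 11.6, 9.41 and 7.47 CPM in SF-Nte, against 53, 60.5 and 59.7 CPM in EV. The 3 genes share tight SF-Nte values, each library resting on few reads for GSR and LRRFIP2, whose 3 libraries held 19 and 14 counts in all. FL-mut held 160, 137 and 67.8 CPM of LSM4 and 40.4, 18.1 and 30.2 CPM of GSR, under every EV library too. LRRFIP2 overlapped between FL-mut and EV.

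TCF3 and RBBP6 had 0 counts in all 3 SF-Nte libraries. TCF3, which encodes the E proteins E12 and E47, had 22.5, 27.7 and 34.7 CPM in EV, at least 13.7-fold lower in SF-Nte when 3 counts are allowed over the group. It was also at 0 in all 3 SF-mut libraries. RBBP6, a ubiquitin ligase that binds RB and p53, had 36.5, 11.7 and 16 CPM in EV and was at least 10.4-fold lower in SF-Nte.

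On the higher side the 8 genes of lowest p had adjusted p from 0.369 to 0.599. SGPL1, the sphingosine phosphate lyase, was at 94.4, 128 and 122 CPM in SF-Nte, against 19.5, 24.8 and 40.1 CPM in EV (log2 fold change 2.03 ± 0.53, SE). PGK1, the glycolytic phosphoglycerate kinase, was at 1456, 1466 and 1345 CPM in SF-Nte, against 488, 582 and 952 CPM in EV (1.08 ± 0.29, SE, log2 fold change). The groups were separate and the SF-Nte libraries close together in each gene.

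TOM1L1, an adaptor of endosomal sorting, was at 220, 166 and 192 CPM in SF-Nte, against 59.0, 75.0 and 97.0 CPM in EV. HSD17B4, a bifunctional enzyme of peroxisomal fatty acid oxidation, was at 185, 135 and 89.6 CPM in SF-Nte, against 59.5, 52.5 and 27.6 CPM in EV. RBMS3, an RNA-binding protein, was at 210, 248 and 276 CPM in SF-Nte, against 73.5, 84.5 and 157 CPM in EV. Groups were separate in all of these.

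RUBCN, which encodes rubicon, an inhibitor of autophagosome maturation, was at 32.7, 22.6 and 39.8 CPM in SF-Nte, against 5, 7.29 and 16 CPM in EV. INSIG2, an endoplasmic reticulum protein that holds back the sterol sensor SCAP, was at 82.8, 96.0 and 47.3 CPM in SF-Nte, against 11.5, 17.5 and 39.2 CPM in EV. C2orf68, an uncharacterised gene, was at 50.1, 35.8 and 44.8 CPM in SF-Nte, against 6.50, 8.01 and 21.4 CPM in EV. In these 3 genes EV replicate 3 was the EV library nearest to SF-Nte.

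The genes with 0 counts in SF-Nte and the highest EV means, besides TCF3 and RBBP6, were LSM7, D2HGDH and SIVA1. LSM7, a partner of LSM4 in the same rings, had 94.5, 13.1 and 3.56 CPM in EV and was at least 17.9-fold lower in SF-Nte. D2HGDH, the mitochondrial D-2-hydroxyglutarate dehydrogenase, had 27.0, 26.2 and 48.1 CPM in EV and was at least 16.3-fold lower in SF-Nte, and SIVA1, an apoptosis regulator, had 61.5, 22.6 and 14.2 CPM and was at least 15.9-fold lower. For LSM7 and SIVA1 the EV level was mainly that of EV replicate 1, and neither was at 0 in the SF-mut libraries, which held 44.1, 311 and 8.20 CPM of LSM7 and 13.1, 225 and 2.05 CPM of SIVA1. D2HGDH was at 6.06, 0 and 0 CPM in FL-mut and at 0, 0 and 24.6 CPM in SF-mut. Low D2HGDH values thus do not go with SF-Nte alone.

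Gene groups were read as counts and medians beside those of all genes, since with 2 lower and 1 higher call no list but those of autophagy and DNA repair, which hold SQSTM1 and MRNIP, had a member past the threshold. The list of hypoxia-induced genes outside glycolysis stood highest. HIF drives such genes when oxygen is low, among them regulators of mitochondria, matrix and vessel growth. Of its 19 tested members 15 were above 0 and 4 below, with a median log2 fold change of 0.98, against -0.13 for all genes. Without overlap, 8 members were higher in SF-Nte and 0 lower, where 6% and 11.3% of all genes were. At an unadjusted p under 0.05, 4 members were higher and 0 lower, where 1.66% and 5.57% of all genes were.

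NDRG1, a stress-induced growth regulator, was at 127, 124 and 59.8 CPM in SF-Nte, against 6, 26.2 and 32.1 CPM in EV (log2 fold change 2.29 ± 0.91, SE, unadjusted p = 0.0226 by edgeR). HILPDA, which coats lipid droplets and inhibits lipolysis, was at 90.5, 77.2 and 57.3 CPM in SF-Nte, against 13, 16 and 47.2 CPM in EV. ERO1A, an oxidase of the endoplasmic reticulum, was at 38.5, 30.1 and 59.8 CPM in SF-Nte, against 10.5, 8.01 and 30.3 CPM in EV. NDRG1 and HILPDA were separate between groups, while EV replicate 3 reached into the SF-Nte range of ERO1A. INSIG2, given above, is the other member at an unadjusted p under 0.05.

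The hypoxia list differed among EV libraries as well. Its median log2 deviation from the EV mean was 0.957, 1.36 and 0.640 in the SF-Nte libraries and -0.704, 0.210 and 0.697 in the EV libraries, so EV replicate 3 was above the lowest SF-Nte library. Leaving out 1 library in turn gave list medians of 0.63 to 1.25, the lowest without EV replicate 1.

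Glycolysis, the conversion of glucose to pyruvate and lactate, had 18 tested members, 12 above 0 and 6 below, with a median log2 fold change of 0.37. At an unadjusted p under 0.05, 5 members were higher and 0 lower, and the same 5 were those without overlap between groups. Of all genes, 1.66% were higher and 5.57% lower at that p, and 6% were higher without overlap. GAPDH was at 44752, 39126 and 40084 CPM in SF-Nte, against 23431, 24793 and 29680 CPM in EV (0.67 ± 0.23, SE, log2 fold change). TPI1, the triosephosphate isomerase, was at 9205, 7746 and 7510 CPM in SF-Nte, against 4688, 4527 and 6801 CPM in EV. These 2 enzymes and PGK1 follow each other in the pathway.

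ENO1, the enolase, was at 4850, 4469 and 4161 CPM in SF-Nte, against 2765, 2293 and 3360 CPM in EV. PFKP, a phosphofructokinase, was at 57.8, 69.6 and 37.4 CPM in SF-Nte, against 15, 18.2 and 32.9 CPM in EV. All 6 members below 0 overlapped between groups. The list median was 0.19 without SF-Nte replicate 2, 0.58 without SF-Nte replicate 3 and 0.56 without EV replicate 3.

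**Figure D3:**
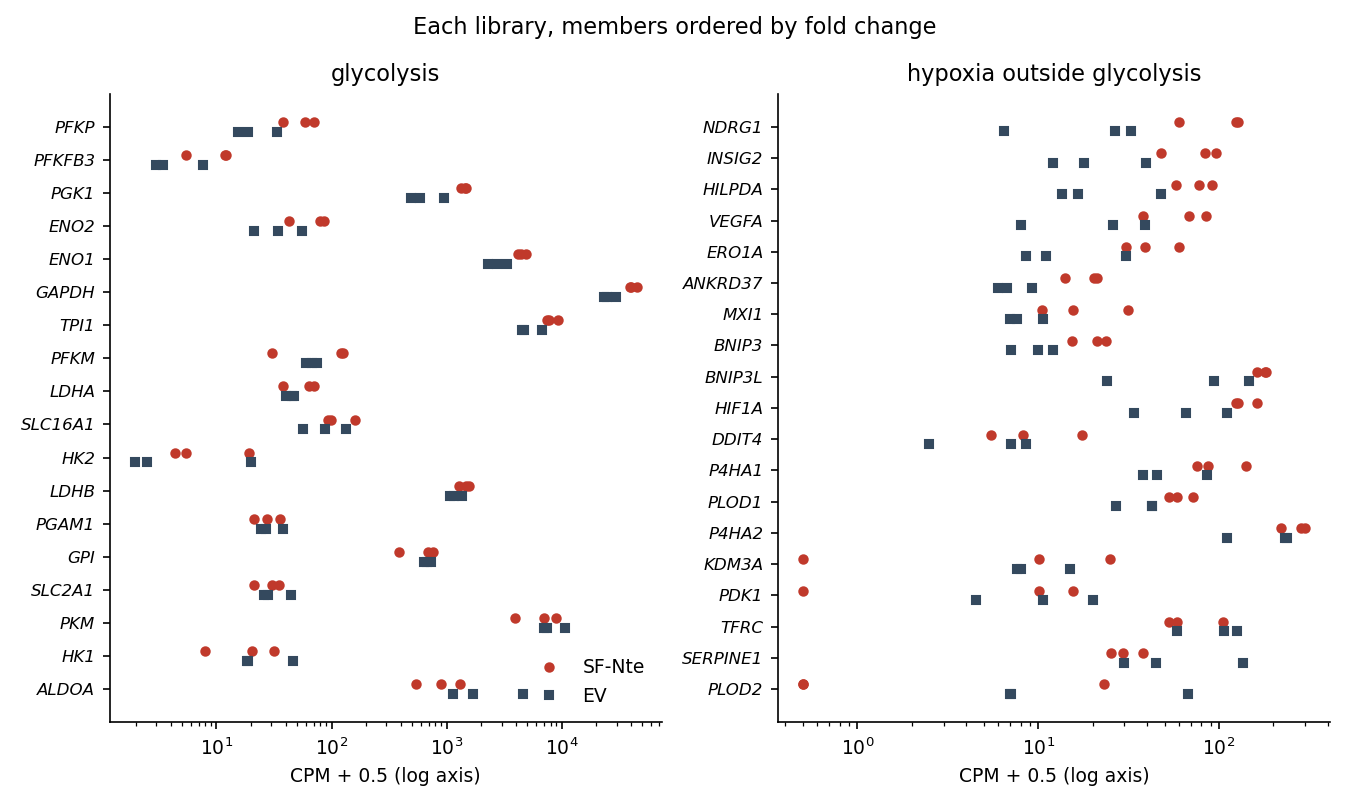
CPM plus 0.5 (log axes) of every tested member of the glycolysis list (left, 18 genes) and of the hypoxia list outside glycolysis (right, 19 genes), ordered by fold change from the highest at the top; red circles are the 3 SF-Nte libraries and dark squares, drawn just under them, the 3 EV libraries. In the glycolysis panel PFKP, PGK1, ENO1, GAPDH and TPI1 are separate between groups, and in the hypoxia panel the separate genes lie in the upper and middle rows while PLOD2, PDK1 and KDM3A include SF-Nte libraries at 0.

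The list of ID and E proteins stood lowest, with all 7 tested members below 0 and a median of -1.73. It also holds HES1, a repressor that is neither an ID nor an E protein. E proteins bind E-box DNA as dimers and ID proteins hold them off DNA. At an unadjusted p under 0.05, 4 members were lower (TCF3, TCF4, ID2 and ID3), where 5.57% of all genes were. The 2 of the 7 that were separate between groups were TCF3 and HES1, where 11.3% of all genes were lower and separate. HES1 was at 17.3, 11.3 and 19.9 CPM in SF-Nte, against 23.0, 21.1 and 37.4 CPM in EV. TCF4, an E protein, was at 44.3, 20.7 and 17.4 CPM in SF-Nte, against 75.0, 37.9 and 122 CPM in EV. ID2 was at 3.85, 3.76 and 0 CPM in SF-Nte, against 166, 5.83 and 3.56 CPM in EV, and ID3 was at 7.70, 7.53 and 14.9 CPM in SF-Nte, against 256, 16 and 0 CPM in EV.

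The 2 ID genes thus owe their EV means to EV replicate 1. Without that library the log2 fold change of ID3 was 0.25, that of ID2 -0.78, and the list median -0.86, while without SF-Nte replicate 2 the median was -2.69. TCF3 is the member at 0 in every SF-Nte library.

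Among lists of the cell's protein and organelle upkeep, those of NRF2 targets, the heat shock response and the lysosome had medians below that of all genes at -0.13, while those of autophagy, the proteasome, endoplasmic reticulum chaperones and oxidative phosphorylation had medians above it. Of 25 NRF2 antioxidant targets, genes induced when SQSTM1 or oxidants free NRF2 from KEAP1, 4 were above 0 and 21 below, with a median of -0.42. Besides GSR, TALDO1 of the pentose phosphate pathway was lower at an unadjusted p under 0.05, at 208, 183 and 192 CPM in SF-Nte, against 297, 428 and 233 CPM in EV. Without EV replicate 2 the list median was -0.23. Of 22 genes of the cytosolic heat shock response and the TRiC chaperonin, 4 were above 0 and 18 below, with a median of -0.43. Over all genes, 57.2% were below 0 and 5.57% were lower at an unadjusted p under 0.05.

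TCP1, a TRiC subunit, was at 146, 126 and 212 CPM in SF-Nte, against 679, 358 and 194 CPM in EV, and the groups overlapped. HSP90AA1, the inducible cytosolic HSP90, was at 410, 570 and 418 CPM in SF-Nte, against 1240, 757 and 605 CPM in EV, without overlap. The heat shock median was -0.21 without EV replicate 1, the library with the highest level of both.

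Of 26 tested autophagy genes 12 were above 0 and 14 below, with a median of -0.04, so SQSTM1 lay far below the median of its list. ATG9A, the lipid scramblase of the early autophagosome, was at 15.4, 33.9 and 22.4 CPM in SF-Nte, against 52.5, 117 and 112 CPM in EV. GABARAPL2, an ATG8 protein, was at 3.85, 3.76 and 2.49 CPM in SF-Nte, on 5 counts in all, against 23.0, 37.9 and 32.1 CPM in EV. Both were separate between groups at an unadjusted p under 0.05 and missed the adjustment (adjusted p = 0.592 and 0.599 by edgeR). With SQSTM1, 3 of the 26 were lower at that p and 0 higher, where 5.57% and 1.66% of all genes were. Without overlap, 3 of the 26 were lower and 3 higher, where 11.3% and 6% of all genes were.

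Of 30 lysosomal genes 10 were above 0 and 20 below, with a median of -0.37, where 57.2% of all genes were below 0. CTSL, the protease cathepsin L, was at 34.7, 28.2 and 52.3 CPM in SF-Nte, against 96.0, 138 and 43.6 CPM in EV, and ATP6V0D1 of the proton pump was at 42.4, 20.7 and 29.9 CPM in SF-Nte, against 100, 73.6 and 49.9 CPM in EV. ATP6V0D1 was lower without overlap, and CTSL overlapped through EV replicate 3. The lysosomal median was -0.06 without EV replicate 2 and -0.15 without EV replicate 3.

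Of 20 genes of DNA double-strand break repair 10 were above and 10 below 0, with a median of -0.02, and MRNIP was the list's only member at an unadjusted p under 0.05.

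Among proliferation genes the list of G1 control and MYC was on the lower side. Of its 13 tested members 2 were above 0 and 11 below, with a median of -0.66, and CCND3 and NOP56 were lower at an unadjusted p under 0.05. Over all genes, 57.2% were below 0 and 5.57% were lower at that p. NOP56, a core protein of box C/D ribonucleoproteins, was at 102, 124 and 77.2 CPM in SF-Nte, against 347, 227 and 141 CPM in EV. MYC itself was not lower, at 69.3, 99.7 and 29.9 CPM in SF-Nte, against 62.0, 33.5 and 50.7 CPM in EV. Its log2 fold change was 0.45 ± 0.56 (SE), and its groups overlapped. The median of this list was -0.36 without SF-Nte replicate 1 and -0.38 without EV replicate 1.

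The 30 replication genes had a median of -0.07 and the 34 mitotic genes one of -0.16, near that of all genes. At an unadjusted p under 0.05, 2 of the 30 and 3 of the 34 were lower and 0 higher. Of all genes, 5.57% were lower and 1.66% higher at that p. Without overlap, 4 replication genes were lower and 0 higher, and 5 mitotic genes were lower and 3 higher. Over all genes, 11.3% were lower and 6% higher without overlap. RRM2, which makes deoxynucleotides, was at 61.6, 62.1 and 52.3 CPM in SF-Nte, against 208, 132 and 80.1 CPM in EV. UBE2C, the ubiquitin carrier of the anaphase-promoting complex, was at 21.2, 32.0 and 12.5 CPM in SF-Nte, against 152, 43.0 and 31.2 CPM in EV. EV replicate 1 was highest for both, and UBE2C overlapped between groups. CENPE, a kinetochore motor, had 0 counts in SF-Nte and 16, 11.7 and 9.79 CPM in EV, at least 6.04-fold lower in SF-Nte.

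Among genes of cell shape, 9 of 27 tested actin and tropomyosin genes were above 0 and 18 below, with a median of -0.17, where 57.2% of all genes were below 0. At an unadjusted p under 0.05, 5 of the 27 were lower and 0 higher, against 5.57% lower and 1.66% higher over all genes. TAGLN, the actin-binding transgelin, had 0 counts in SF-Nte and 47.5, 13.1 and 20.5 CPM in EV, at least 13.1-fold lower in SF-Nte. CALD1, caldesmon, was at 102, 73.4 and 54.8 CPM in SF-Nte, against 250, 133 and 291 CPM in EV, and ACTN4, an actinin, was at 90.5, 65.9 and 87.2 CPM in SF-Nte, against 304, 236 and 144 CPM in EV. The groups were separate for these.

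VCL, vinculin, was at 11.6, 18.8 and 7.47 CPM in SF-Nte, against 49.5, 47.4 and 59.7 CPM in EV, and was separate too. TAGLN2 was at 774, 384 and 605 CPM in SF-Nte, against 1276, 909 and 770 CPM in EV, and overlapped by a narrow margin. The lowest edgeR adjusted p of the 5 was 0.275, for TAGLN.

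The remaining lists had medians from -0.52 to 0.49, and none had a member past the adjusted threshold. NF-kB targets and cytokines had 2 of 8 tested members above 0 and the lowest of these medians, -0.52. CXCL8, the neutrophil chemokine interleukin-8, was its only member at an unadjusted p under 0.05, at 0, 5.65 and 2.49 CPM in SF-Nte, against 16, 72.1 and 0 CPM in EV, with overlap. Metallothioneins, which bind zinc and copper, had 3 of 3 above 0 and a median of 0.49, which was 0.18 without EV replicate 1, and their groups overlapped in all 3.

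Integrins, adhesion and caveolae genes had 6 of 16 above 0 and a median of -0.37. FLOT1, a flotillin of membrane rafts, was at 57.8, 22.6 and 14.9 CPM in SF-Nte, against 81.0, 162 and 49.0 CPM in EV, with overlap, and NCAM1, a neural adhesion molecule, was at 9.63, 1.88 and 0 CPM in SF-Nte, against 10.0, 37.9 and 12.5 CPM in EV, separate by a narrow margin. These 2 were its members at an unadjusted p under 0.05, where 5.57% of all genes were lower at that p. Interferon and MHC class I genes had 13 of 18 above 0 and a median of 0.45, with PSMB8 of the immunoproteasome at 566, 454 and 418 CPM in SF-Nte, against 189, 398 and 288 CPM in EV.

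Nuclear genes of oxidative phosphorylation had 28 of 51 above 0 and a median of 0.07, proteasome genes 13 of 30 and -0.04, endoplasmic reticulum chaperones 9 of 23 and -0.09, and translation factors 14 of 26 and 0.07. Cholesterol synthesis genes had 11 of 18 above 0 and a median of 0.05, with 0 at an unadjusted p under 0.05 in either direction. Mesenchymal glioblastoma genes had 11 of 28 above 0 and a median of -0.03, and the 14 corepressor partners of ZBTB18 a median of 0.11 with 0 at an unadjusted p under 0.05. S100 genes (2 of 8 above 0, median -0.30), fatty acid synthesis (5 of 14, -0.25), matrix and protease genes (8 of 21, -0.24) and SREBP regulators (5 of 11, -0.23) had medians below that of all genes. Galectins and annexins (6 of 11, 0.30), neuronal and progenitor genes (5 of 7, 0.27), ATF4 targets (13 of 23, 0.22), lipid droplet genes (4 of 6, 0.17) and HMG proteins (6 of 9, 0.09) had medians above 0, and p53 targets (6 of 15, -0.11) and YAP and TGF-beta targets (6 of 14, -0.04) lay near all genes.

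**Figure D4:**
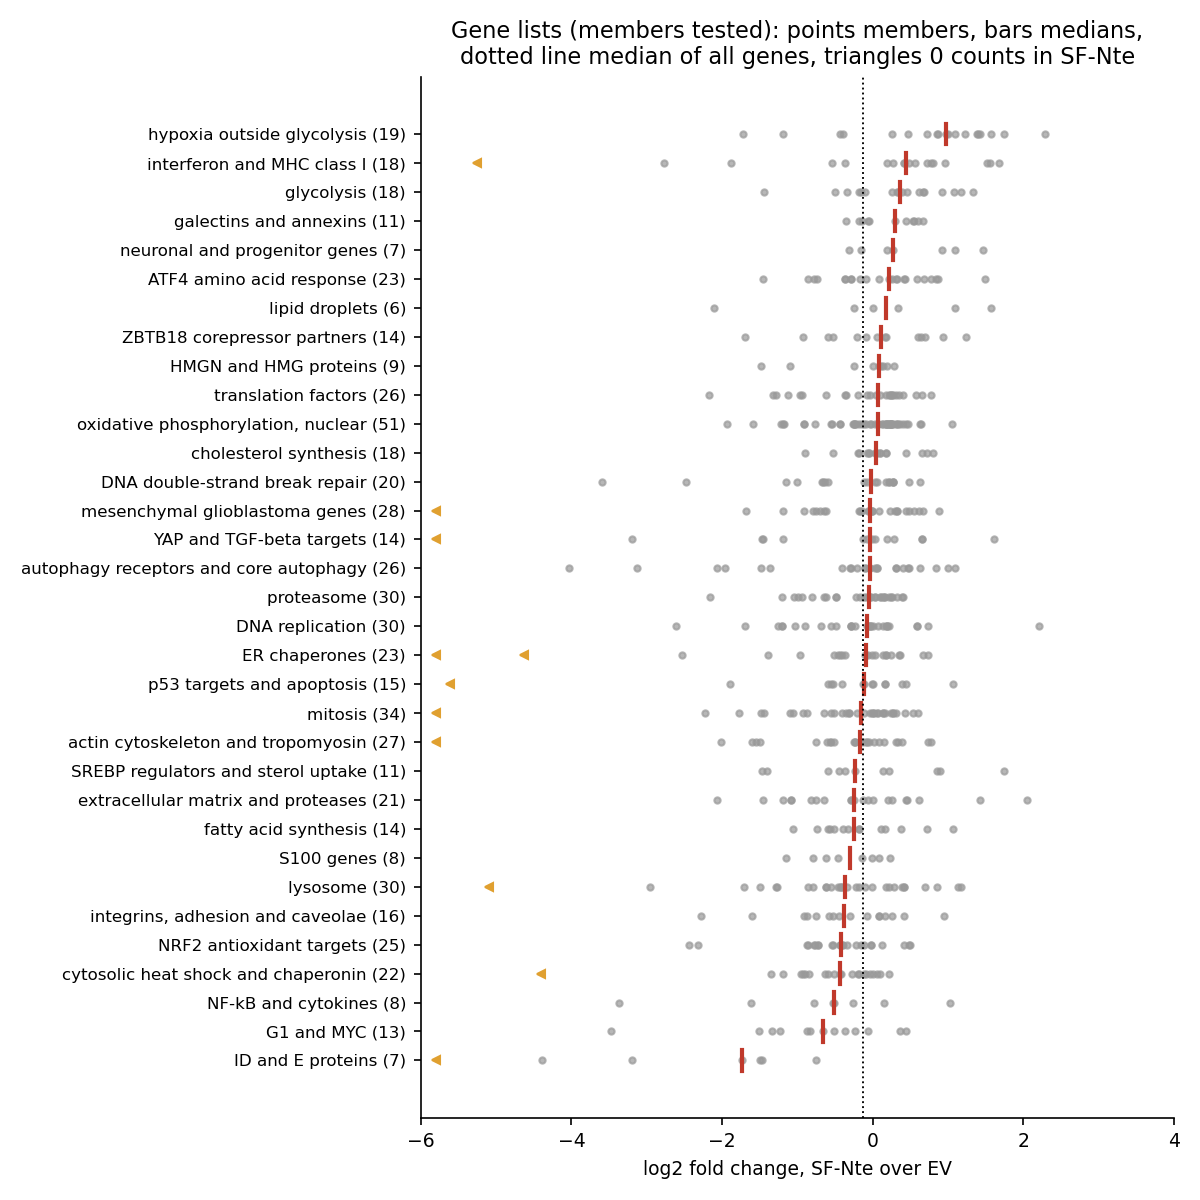
Log2 fold change of SF-Nte over EV (horizontal axis) for the tested members of lists with at least 6 tested genes, with the number tested in brackets, ordered by median. The 2 lists chosen on the full-length protein are not drawn. Grey points are members, red bars list medians, triangles members with 0 counts in SF-Nte drawn near the left edge where their fitted value lies further left, and the dotted line the median of all genes at -0.13; hypoxia stands highest at 0.98 and ID and E proteins lowest at -1.73.

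The genes that change with the full-length protein were looked at in the short-form libraries. Such lists were chosen on FL against EV in an earlier analysis of these libraries, so the contrast of SF-Nte with FL for them is not independent evidence, and SF-Nte against EV shares the EV libraries. The 9 genes lower with FL had 4 above and 5 below 0 in SF-Nte against EV, with a median log2 fold change of -0.05, and the 7 genes higher with FL had 1 above and 6 below, with a median of -0.28. By edgeR, 0 of the 16 passed the adjusted test against EV, where the share over all genes was 0.0443%, and ANXA2, S100A6 and FOXJ3 had an unadjusted p under 0.05.

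S100A6, which encodes a small calcium sensor, was at 9240, 7727 and 8726 CPM in SF-Nte, against 12727, 13753 and 13131 CPM in EV. The groups did not overlap, and the log2 fold change of -0.62 ± 0.22 (SE, 95% interval -1.09 to -0.16) had an unadjusted p of 0.0120 and an adjusted p of 0.599 by edgeR. FL libraries held 1931, 1208 and 1109 CPM of S100A6, far below both. S100A4, tied to cell motility, was at 559, 534 and 393 CPM in SF-Nte, against 238, 354 and 671 CPM in EV, with overlap, and at 13.2, 7.46 and 36.8 CPM in FL.

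LGALS1, galectin-1, was at 1922, 1983 and 1845 CPM in SF-Nte, against 2375, 1300 and 2259 CPM in EV and 202, 83.3 and 138 CPM in FL. HMGN3, a nucleosome-binding protein, was at 676, 519 and 396 CPM in SF-Nte, against 482, 390 and 441 CPM in EV and 43.7, 62.2 and 39.7 CPM in FL. SF-Nte and EV overlapped in both genes, and every FL library lay below them. The 95% interval of SF-Nte against EV was -0.92 to 0.83 for LGALS1 and -0.28 to 0.84 for HMGN3, so log2 differences within these bounds remain possible.

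ANXA2, annexin A2, was at 35934, 32897 and 29979 CPM in SF-Nte, against 14039, 16531 and 31278 CPM in EV and 7441, 8235 and 8709 CPM in FL. EV replicate 3 reached into the SF-Nte range, and SF-Nte against EV gave a log2 fold change of 0.68 ± 0.26 (SE, unadjusted p = 0.02, adjusted p = 0.605 by edgeR). FOXJ3, a forkhead factor, was at 243, 56.5 and 164 CPM in SF-Nte, against 913, 94.0 and 708 CPM in EV and 49.9, 24.9 and 29 CPM in FL. Its groups overlapped between SF-Nte and EV, with SF-Nte and EV replicates 2 the lowest of each.

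S100A2 was at 836, 595 and 403 CPM in SF-Nte, against 441, 597 and 978 CPM in EV, and CSRP1, a LIM-domain protein, at 96.3, 60.2 and 159 CPM, against 80.5, 145 and 129 CPM in EV. CCL2, a monocyte chemokine, was at 772, 595 and 695 CPM in SF-Nte, against 82.5, 227 and 1550 CPM in EV. All 3 overlapped, and the spread of CCL2 over the EV libraries was wider than any difference between the groups.

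Of the genes higher with FL, the cancer-testis gene SPANXB1 was at 5.78, 16.9 and 7.47 CPM in SF-Nte, against 16, 14.6 and 8.01 CPM in EV and 103, 240 and 112 CPM in FL. SPANXA1 and SPANXA2 had the same values in these libraries, 13.5, 9.41 and 17.4 CPM in SF-Nte, against 27.5, 24.0 and 14.2 CPM in EV. How the counting treated reads of such near-identical copies is not known, so the values of each copy are uncertain. SPANXC was at 5.78, 5.65 and 7.47 CPM in SF-Nte, against 8, 5.83 and 8.01 CPM in EV, and SPANXD at 13.5, 9.41 and 17.4 CPM, against 20, 18.2 and 9.79 CPM in EV. ACYP2, an acylphosphatase, was at 7.70, 9.41 and 12.5 CPM in SF-Nte, against 6.50, 10.2 and 4.45 CPM in EV, and ABHD12B at 13.5, 3.76 and 2.49 CPM, against 7, 9.47 and 8.01 CPM in EV. SF-Nte and EV overlapped in all 7 genes, as in most genes: over all genes, 6% were higher and 11.3% lower without overlap.

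**Figure D5:**
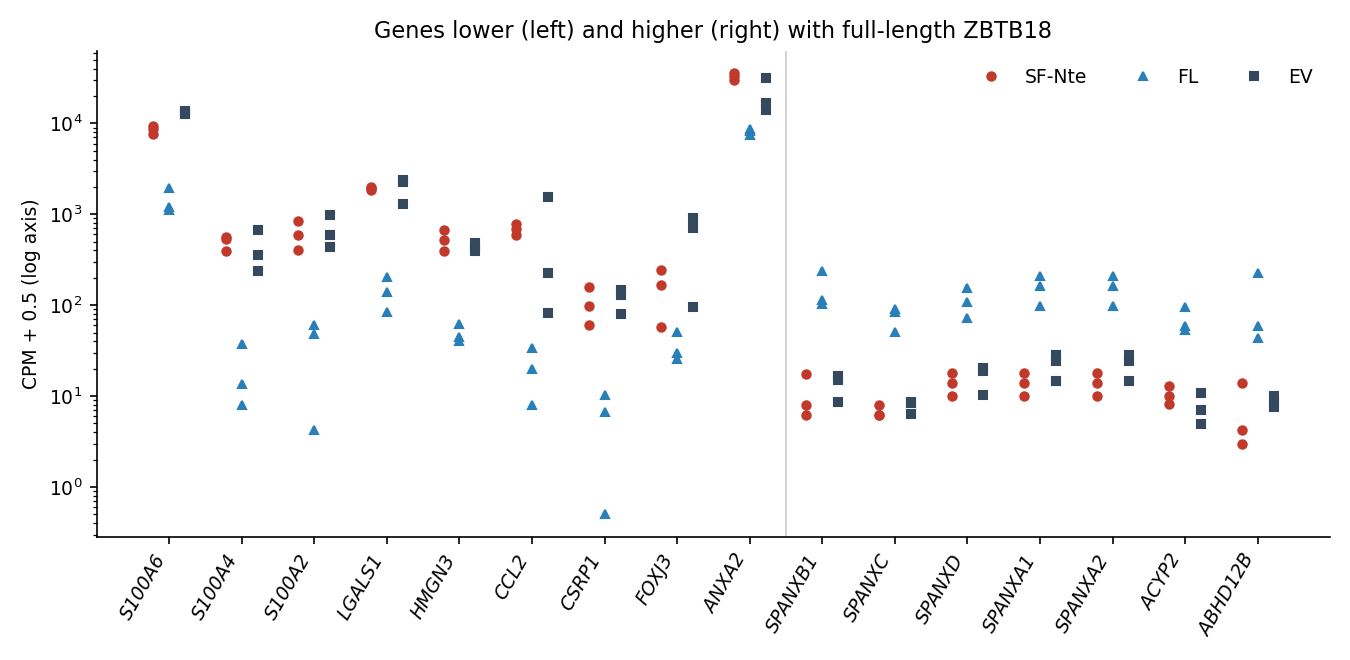
CPM plus 0.5 (log axis) in each library of SF-Nte (red circles), FL (blue triangles) and EV (dark squares) for the 9 genes lower (left of the grey line) and the 7 genes higher with full-length ZBTB18. For S100A6, S100A4, LGALS1 and HMGN3 the SF-Nte libraries lie near EV and every FL library below both, and for the SPANX genes the FL libraries lie above both; FOXJ3 is spread widely in SF-Nte and EV.

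The direct contrast with the full-length protein found more genes. In SF-Nte against FL, 72 of 6767 genes (1.06%) passed an adjusted p of 0.05, 33 (0.488%) higher and 39 (0.576%) lower in SF-Nte, and 891 (13.2%) had an unadjusted p under 0.05. The 72 included 8 of the 9 genes lower with FL, all higher in SF-Nte, and 7 of the 7 genes higher with FL, all lower in SF-Nte, a count that the choice of the lists favours. The genes of lowest p were HMGN3, at a log2 fold change of 3.45 ± 0.29 (SE) and adjusted p = 2.32e-05, and S100A6, at 2.60 ± 0.23 and adjusted p = 2.35e-05, both higher in SF-Nte by edgeR's test.

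The other higher genes of lowest p were S100A4 (log2 fold change 4.68 ± 0.53, SE), LGALS1 (3.76 ± 0.46), ANXA2 (2.02 ± 0.27), MT2A (2.38 ± 0.34), S100A2 (4.01 ± 0.63) and SNUPN (2.62 ± 0.42). MT2A, a metallothionein that binds zinc and copper, was at 1872, 1349 and 2015 CPM in SF-Nte, against 422, 174 and 406 CPM in FL, with 995, 1399 and 1669 CPM in EV. SNUPN, which imports spliceosomal snRNPs into the nucleus, was at 177, 143 and 222 CPM in SF-Nte, against 27.7, 21.1 and 38.7 CPM in FL, with 83.5, 50.3 and 139 CPM in EV. For both, FL was the group that lay lowest.

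On the lower side against FL stood SQSTM1 (log2 fold change -3.61 ± 0.58, SE), IGF2R (-3.24 ± 0.56) and MRNIP (-3.21 ± 0.56), which were near the EV level in FL. CAV2, a caveolin, was at 9.63, 15.1 and 12.5 CPM in SF-Nte, against 63.8, 94.5 and 90.0 CPM in FL, with 24.0, 13.1 and 16 CPM in EV (-2.73 ± 0.48, SE, SF-Nte over FL). The antisense gene SLC44A3-AS1 was at 3.85, 3.76 and 0 CPM in SF-Nte, against 83.9, 330 and 63.9 CPM in FL, with 11, 18.9 and 7.12 CPM in EV. As strand use is not known, its reads cannot be told from those of its partner gene. The 5 SPANX genes were also among the 39 lower genes, with log2 fold changes from -3.88 for SPANXB1 to -3.04 for SPANXD.

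Of the 72 calls, 9 were kept in all 6 fits that left out a library (ANXA2, HMGN3, LGALS1, MDP1, MT2A, S100A2, S100A4, S100A6 and SH3BGRL), and all 9 are higher in SF-Nte. MDP1 and SH3BGRL had log2 fold changes of 2.81 ± 0.46 and 3.61 ± 0.59 (SE) and were named after their values were seen. The count of calls was 12 without SF-Nte replicate 3 or FL replicate 2, 13 without SF-Nte replicate 1, 21 without SF-Nte replicate 2, 48 without FL replicate 3 and 64 without FL replicate 1. With the length and GC trend taken out, 48 genes were higher and 37 lower.

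Against the mutant of the short form, 0 genes passed the adjustment in edgeR, with 564 (8.33%) at an unadjusted p under 0.05, while DESeq2 called 4 genes, all lower in SF-Nte, and limma voom 0. Of the 10 genes lower in SF-Nte than in EV that are given above with values from the call or the lowest p, the SF-mut libraries were all under every EV library for SQSTM1, MRNIP, IGF2R, LSM4, TCF3, LRRFIP2, CCND3, RBBP6 and GSR, but not for PPA1. The 10 were named for low values against the same EV libraries, which favours such a count: all SF-mut libraries were under every EV library for 7.68% of all tested genes, and for 28.1% of the 766 genes for which all SF-Nte libraries were. GSR was at 18.0, 6.16 and 8.20 CPM and LRRFIP2 at 27.8, 9.25 and 18.5 CPM in SF-mut. On the higher side, SF-mut held 32.7, 95.6 and 129 CPM of SGPL1 and 1204, 875 and 1388 CPM of PGK1. It held 14.7, 33.9 and 30.8 CPM of INSIG2, and each of these genes reached into the EV range. HSD17B4, RBMS3 and C2orf68 overlapped between SF-mut and EV as well. By contrast, all SF-mut libraries were above every EV library for TOM1L1 (141, 194 and 232 CPM) and RUBCN (26.1, 40.1 and 57.4 CPM). TOM1L1 was also above every EV library in FL, at 147, 275 and 198 CPM. RUBCN was above every EV library in FL-mut, at 22.2, 45.3 and 30.2 CPM, and so was HSD17B4, at 79.8, 136 and 169 CPM. Levels above EV thus do not go with the short form alone for TOM1L1, RUBCN and HSD17B4. The other higher genes named overlapped between FL-mut and EV. These genes too were named for their values against the same EV libraries. The values in SF-mut are given side by side with SF-Nte and were not tested against EV here.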

How the data were processed

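PolyA RNA of SNB19 cells was extracted with Trizol and made into libraries with Oxford Nanopore PCR barcoding and cDNA-PCR kits, per the labels' protocols. The authors deposited raw counts, whole numbers by gene symbol, for all 15 libraries, with the build GRCh38 named in the submitters' processing notes. How reads were aligned and counted, with which annotation and whether by strand, is not given in the sources used here. PCR-amplified reads without molecular identifiers are not independent molecules, so bounds and intervals on counts cover counting error only. Amplification can also depend on the length and GC content of the cDNA. Groups follow the labels, and symbols were matched to GENCODE 29 for positions, lengths and GC content (17975 of 18485, 97.2%).

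The filter filterByExpr, with a minimum count of 10 and a minimum total of 15, retained 6767 genes and dropped 11718. Counts were scaled by TMM and fitted in edgeR 4.0.16 (R 4.3.3) by a robust quasi-likelihood model with 1 coefficient for each of 5 groups over all 15 libraries (10 residual degrees of freedom), and p-values were adjusted over all tested genes by Benjamini and Hochberg at 0.05. All tests are two-sided. The standard error is the size of the log2 fold change divided by the square root of F. For a gene with 0 counts in a group the fold is a bound from 3 counts over the group. Replicates differed by more than sampling noise (chi-square per gene 4.23 to 5.52 between SF-Nte libraries, 20.6 to 37.2 between EV libraries), so none was merged. The scripts were tested on simulated data.

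Named are ZBTB18, all genes past the threshold, the 8 of lowest p in each direction whose groups are separate and whose higher group has 10 counts or more in every library, genes with 0 counts in a group and the highest mean in the other, members of the 2 lists chosen on the full-length protein, members of lowest p of a list, and up to 8 genes in each direction against FL. Other list members with an unadjusted p under 0.05 were chosen after their values were seen. The members and the 36 gene lists were chosen with earlier results of these data known. Alternatives used edgeR on the compared libraries, DESeq2 1.42.0 size factors and Wald test, upper-quartile scaling, limma 3.58.1 voom with quality weights, no filter, a replicate block, a length and GC offset, and each library left out.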

Additional observations from a re-analysis of the deposited data

How the results depend on the processing

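The 3 calls of SF-Nte against EV became 1 with only the compared libraries or with DESeq2 size factors, 31 with DESeq2 (4 higher, 27 lower), 0 with voom (870 at an unadjusted p under 0.05; 609 by DESeq2), 121 with no filter, 5 with a replicate block, 0 with the length and GC offset (505 at an unadjusted p under 0.05), and 0 to 4 with 1 library left out. The replicate numbers did not pair the groups: same-number libraries of SF-Nte and EV had correlations of 0.065, 0.044 and -0.006 in their deviations, and the block added CCND3 (adjusted p = 0.0477) and LSM4 (0.0223). The 72 calls against FL became 130, 296 with DESeq2, 135 with voom, 301 with no filter, and 12 to 64 with 1 library left out, against 81 with the block; the 0 calls against SF-mut became 4 with DESeq2 and 193 with no filter. ZBTB18 kept its direction, with a log2 fold change of 5.58 at DESeq2 size factors (adjusted p = 0.0837), 5.58 with voom (0.242), 5.74 with the offset (0.101), and 5.10 to 5.76 with 1 library left out, and it lost its call under 8 of 14 alternatives. The offset moved the median of all genes from -0.13 to 0.06. Among 1094 alternative values of 79 named genes other than ZBTB18, 1024 kept direction and side of the threshold, 14 lost a call (8 of MRNIP and 6 of SQSTM1), 40 gained one and 16 changed sign, all 16 of genes without a call. These were LGALS1 (0.031 with upper-quartile scaling, 0.15 with voom, 0.28 with the offset, -0.29 to 0.10 with 1 library left out), SPANXC (0.0049 with voom), CSRP1 (0.0188 with the offset, -0.64 to 0.085), S100A2 (0.11 with the offset, -0.43 to 0.21), ABHD12B (-1.32 to 0.030), CCL2 (-0.38 to 2.13), ID3 (-3.79 to 0.25) and S100A4 (-0.053 to 0.72). For list medians, 330 of 360 stayed within 1 SD between libraries and 30 moved further. The cause was not tested. Genes at few counts in the shallower SF-Nte libraries limit what could be detected there.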
